A study of Homo sapiens with 74 samples.

Results

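The proteasome subunit genes were examined in RNA-seq counts of 2 human erythroleukaemia cell lines, K562 and HEL, after loss of DOT1L or of its partner ENL. Members were chosen by symbol alone: the letters PSM, one letter from A to G and a number, which took 48 of the 28131 genes listed. The members are 7 alpha and 7 constitutive beta subunits of the 20S core, 3 inducible catalytic subunits (PSMB8, PSMB9 and PSMB10), 2 core subunits of testis and thymus (PSMA8 and PSMB11), 6 ATPases and 11 other subunits of the 19S regulatory particle, 4 genes of alternative caps, 1 inhibitor (PSMF1) and 7 assembly chaperones. Another 5 symbols that begin in the same way, antisense genes among them, fall outside the rule.

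The proteasome degrades proteins that carry ubiquitin. Its 20S core is a stack of rings, with outer rings of alpha subunits that gate entry and inner rings of beta subunits, of which PSMB5, PSMB6 and PSMB7 cut peptide bonds. The 19S particle binds, unfolds and deubiquitinates substrates. Interferon signalling is known to induce PSMB8, PSMB9 and PSMB10, which take the places of PSMB5, PSMB6 and PSMB7 in the immunoproteasome, together with PSME1 and PSME2, the subunits of the PA28 cap.

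DOT1L is the methyltransferase of lysine 79 of histone H3, and ENL (gene symbol MLLT1) is a reader of acetylated histones that belongs to its complex. The groups were wild-type K562 (3 deposited columns), DOT1L-/- K562 (3 libraries, KO), ENL-/- K562 (3 libraries), control HEL (2 libraries) and HEL with DOT1L knockdown (2 libraries, KD). The labels used here name no clone and no agent of knockdown or knockout, and nothing says that replicates came from separate cultures, so p-values measure only the spread between these libraries.

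K562 control columns 2 and 3 were identical throughout and counted as 1 sample, which left 2 control libraries. Library totals were 15404944 to 29236703 fragments for K562 and 12151495 to 12811688 reads for HEL. DOT1L fell from 270 and 256 CPM (counts scaled by TMM to a common library total) in the K562 controls to between 176 and 186 in the KO, and from 97.5 and 87.4 to 29.1 and 30.0 in HEL. MLLT1 fell from 214 and 219 CPM to between 153 and 157 in the ENL KO. The erythroid factor GATA1 was at 266 to 426 CPM in K562 and 285 to 306 in HEL. Among lymphocyte and monocyte markers, 6 stayed under 2 CPM in every library, while CD3D was at 15.4 to 72.0 CPM in K562 and CD2 at 8.49 to 11.1 in HEL.

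Promoter letters shared by the interferon-linked members PSMB8, PSMB10, PSME1 and PSME2 are shown first. RefSeq promoter windows (GRCh38.p14, 250 bases before to 50 after a gene's start) were found for 42 members, 51 windows in all. The longest run shared, on either strand, by PSMB8, PSMB10, PSME1 and PSME2 is 12 bases, GAAAGCGAAAGC or its reverse complement GCTTTCGCTTTC. The search was set after the values had been seen. It left out the interferon-induced PSMB9, which is listed on several sequences, as PSMB8 is. The window of PSMB9 does not hold the run. Among the other members with a window, PSMG4 alone holds the run. Of all 35116 promoter windows 17 (0.0484%) hold it, and those of the 4 genes searched do so by construction. The stretches below are 60 bases on the strand of the gene, with the run in capitals.

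PSMB8: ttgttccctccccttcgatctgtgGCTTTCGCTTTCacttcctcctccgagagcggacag
PSMB10: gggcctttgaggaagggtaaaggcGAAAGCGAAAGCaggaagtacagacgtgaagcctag
PSME1: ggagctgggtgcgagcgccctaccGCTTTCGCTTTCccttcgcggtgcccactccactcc
PSME2: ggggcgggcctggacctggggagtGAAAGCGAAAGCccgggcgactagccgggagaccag
PSMG4: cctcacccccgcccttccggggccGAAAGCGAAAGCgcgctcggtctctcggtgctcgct

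The stretches lie at chr6:32844018-32844077 (minus strand) for PSMB8, chr16:67936836-67936895 (minus) for PSMB10, chr14:24136173-24136232 (plus) for PSME1, chr14:24146603-24146662 (minus) for PSME2 and chr6:3258890-3258949 (plus) for PSMG4. PSMG4 is a chaperone of core assembly and the others belong to the interferon-inducible set. The looser form GAAANNGAAA (both strands, contained in the run above), which matches the core of the interferon-stimulated response element, is in 3.57% of all windows. The 5 genes above hold it by construction, so its share among members is not compared. PSMA4 and PSMB4 hold it as well, and PSMB9 does not. TTCNNNGAA, the core of the gamma-activated sequence, was in 8 member windows (15.7%) against 7.66% of all windows, and TGACNNNGC, the core of the antioxidant response element, in 15 (29.4%) against 13.3%. These matches are letters in a window and are no evidence of binding.

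The whole windows of PSMB10 (chr16:67936801-67937100, minus strand), which was higher in the K562 DOT1L KO, and PSMG4 (chr6:3258697-3258996, plus strand), which was lower there, follow, with the run in capitals.

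PSMB10: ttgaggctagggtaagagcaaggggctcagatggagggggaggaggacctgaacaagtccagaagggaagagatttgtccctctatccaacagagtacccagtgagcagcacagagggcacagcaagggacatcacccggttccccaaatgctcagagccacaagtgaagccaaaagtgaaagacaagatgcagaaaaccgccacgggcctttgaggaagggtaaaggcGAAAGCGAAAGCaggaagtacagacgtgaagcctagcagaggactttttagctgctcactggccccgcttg
PSMG4: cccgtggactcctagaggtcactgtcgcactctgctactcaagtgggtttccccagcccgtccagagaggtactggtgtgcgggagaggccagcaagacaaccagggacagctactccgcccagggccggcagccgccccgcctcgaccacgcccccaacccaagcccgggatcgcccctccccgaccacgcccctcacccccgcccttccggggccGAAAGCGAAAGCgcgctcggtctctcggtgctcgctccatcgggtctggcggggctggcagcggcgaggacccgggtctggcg

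Transcript levels of the core differed several-fold between subunits of the same ring, within every group. Levels of different genes are compared here per length, as TMM-scaled CPM per kilobase of exon. Exon length merges all exons listed for a gene, and which of them these cells use was not tested. In K562 controls PSMA5 was the lowest of 13 constitutive core genes at 45.2 and PSMB2 the next at 74.1. PSMB4 and PSMB1 were the highest at 280 and 289, a range of 6.39-fold over both rings. PSMA5 was also the lowest in HEL controls at 36.5, where PSMB4 (214) and PSMA7 (220) led. Of the 12 pairs of neighbours in this order, the libraries overlapped in 3 pairs of K562 controls, 5 of DOT1L KO, 7 of ENL KO, 3 of HEL controls and 3 of HEL KD. PSMA5 and PSMB2 have the longest exonic lengths of the 13, 3864 and 4553 bases, so their places rest on the length used. In CPM without length, PSMB2 was the highest of the 13 in K562 controls at 337 and PSMA3 the lowest at 77.7.

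Among the 17 genes of the 19S particle, the ATPase PSMC6 (19.4) and the lid subunit PSMD12 (29.2) were lowest in K562 controls. The lid subunit PSMD3 (164) and the scaffold PSMD2 (165) were highest. In HEL controls PSMD12 (17.7) and the ATPase PSMC1 (21.7) were lowest, and the deubiquitinase PSMD14 (110) and PSMD8 (113) were highest. The limit of exonic length holds here as well, with 3759 bases for PSMC6 and 4690 for PSMD12. The tables of the 2 lines count fragments in K562 and reads in HEL and were scaled apart, so these levels stand side by side without a test.

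**Figure D1:**
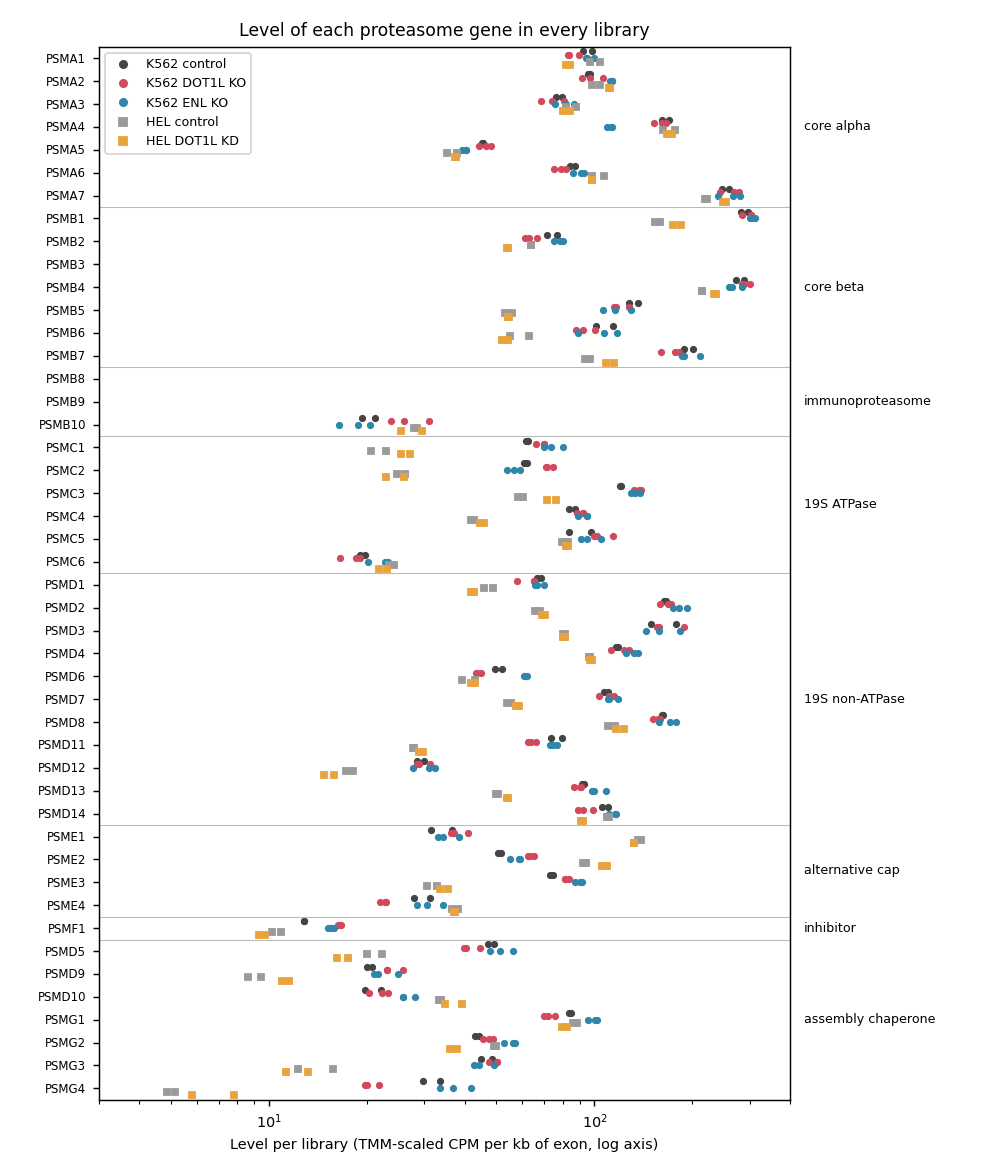
Level of each proteasome gene (rows, grouped by role) in every library, as TMM-scaled CPM per kilobase of exon on a log axis; each point is 1 library, circles K562 and squares HEL. PSMA5 sits lowest among the alpha and beta genes and PSMB10 lies below nearly all of them; PSMB3, PSMB8 and PSMB9 have no points because the tables list them on several sequences, and PSMA8 and PSMB11, near 0, are left out.

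A set of 3 members is listed on a main chromosome and on alternate sequences: PSMB8 and PSMB9 on chromosome 6 and PSMB3 on chromosome 17. Of 1174 genes listed in this way, 45.9% were at 0 in all K562 libraries and 74.7% in all HEL libraries, against 26.0% and 35.5% of genes listed on main chromosomes alone. PSMB3, a structural core subunit, was at 2.56 to 4.69 CPM in K562 and listed at 0 in HEL, and PSMB9 had at most 0.0947 CPM in any library. The levels of these genes are therefore uncertain, and PSMB3 and PSMB9 are not read as low expression. PSMA8 and PSMB11 were at or near 0 in all libraries, at most 0.0799 and 0.0473 CPM.

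Loss of DOT1L in K562 was asked first. PSMB8 and PSMB10, the inducible catalytic subunits, PSME2 of the PA28 cap and the inhibitor PSMF1 were higher in the KO. The chaperone PSMG4, the PA200 cap PSME4, and the lid subunit PSMD11 were lower. Of the 14 constitutive core genes 2 passed. In edgeR's quasi-likelihood test, with p-values adjusted over 14301 genes by the Benjamini-Hochberg method (threshold 0.05), 18 of 45 tested members passed, 9 higher and 9 lower, where 51.1% of all genes tested passed, 26.9% higher and 24.2% lower. The median size of the log2 fold change was 0.14 over members and 0.29 over all genes, and 2 members but 32.6% of all genes changed by at least 0.5 on the log2 scale. The libraries of KO and control did not overlap in 28 of 45 members, against 68.1% of all genes.

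This count rests on the control libraries. It was 13 without control 1, where 5691 of all genes (38.8%) passed, and 7 without control 2, where 5664 (38.6%) did. With a change of at least 1.2-fold asked for as well, 6 members passed, and 43.4% of all genes. The 6 members past the threshold with any one library left out were PSMC2, PSMD11, PSME2, PSME4, PSMF1 and PSMG4.

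In the core, PSMA1 (alpha) fell by 0.16 and PSMB2 (beta) fell by 0.22 on the log2 scale. PSMB2 had 326 and 349 CPM in controls and 288, 302 and 278 in the KO. The KO libraries were all below the controls, with an adjusted p of 0.00518 in edgeR, but of 0.077 without control 2. PSMA1 was lost without control 2, KO 1 or KO 3 and with library-size scaling. The catalytic PSMB5, PSMB6 and PSMB7 did not pass.

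The immunoproteasome genes moved the other way. PSMB10 (chr16:67934504-67936877) was at 21.3 and 19.5 CPM in controls and at 31.2, 26.2 and 23.8 in the KO. Every KO library was above both controls, with a log2 fold change of 0.41 ± 0.119 (SE) and an adjusted p of 0.0116 in edgeR. Without control 2 it was 0.34 with an adjusted p of 0.11. Per kilobase, PSMB10 made up 9.43% ± 0.200 (SD, n = 2) of the sum of PSMB7 and PSMB10 in controls and 13.4% ± 0.974 (SD, n = 3) in the KO. PSMB8 (chr6:32840717-32844935) had 21 and 15 counts in controls and 39, 45 and 42 in the KO. The KO counts were all above those of the controls, and the ratio of the pooled counts per total was 2.12 (95% counting interval 1.45 to 3.15, counting error only). The adjusted p of PSMB8 in edgeR was 0.00818, and 0.094 without control 2. These are few counts of a gene listed on several sequences.

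The inducible regulators were measured beside them. IRF1, a transcription factor of the interferon response, rose from 8.74 and 9.27 CPM to 24.3, 22.8 and 22.1. B2M, the light chain of MHC class I, rose from 51.4 and 53.7 CPM to 66.4, 78.2 and 64.6. NLRC5, the activator of MHC class I genes, was at 0.0465 and 0.142 CPM in controls and at 1.41, 1.39 and 1.80 in the KO. TAP1, a peptide transporter that is also listed on several sequences, stayed under 1 CPM. TAP2, near 2 CPM, fell, a call lost without control 1, KO 2 or KO 3 and with other scalings.

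The caps split. PSME2 rose from 41.9 and 42.7 CPM to 51.7, 52.6 and 53.9, with no overlap (log2 fold change 0.32 ± 0.066, adjusted p = 0.00122 in edgeR). PSME1, its partner in PA28, was at 37.1 and 43.2 CPM in controls and 43.7, 48.1 and 42.8 in the KO, and did not pass. PSME3, the nuclear PA28 gamma, rose by 0.15 on the log2 scale, a call lost without either control or KO 2. PSME4 (chr2:53864067-53970840) had 199 and 221 CPM in controls and 156, 163 and 162 in the KO. All KO libraries were below the controls, and it fell by 0.39 on the log2 scale (SE 0.0739, adjusted p = 0.000606 in edgeR).

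PSMF1 (chr20:1113229-1172246), which encodes PI31, was at 107 CPM in both controls and at 140, 138 and 136 in the KO. The groups were far apart for the spread of the replicates, with a log2 fold change of 0.36 ± 0.0527 and an adjusted p of 6.89e-05 in edgeR.

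The ATPases and the other subunits of the 19S particle were counted apart, and no difference between them was tested. Of 6 ATPases, PSMC2, PSMC3 and PSMC5 rose, by 0.24, 0.18 and 0.21 on the log2 scale, and none fell. The call of PSMC3 was lost without either control. That of PSMC5 was lost without KO 1, KO 2 or control 2, where its log2 fold change was 0.10 (adjusted p = 0.44 in edgeR). Of 11 other subunits none rose, while PSMD6 fell by 0.21, PSMD11 fell by 0.26 and PSMD14 fell by 0.21 on the log2 scale. PSMD11 went from 296 and 320 CPM to 257, 265 and 250. PSMD6 and PSMD14 missed the threshold without control 2. The median log2 fold change was 0.16 over the ATPases, -0.05 over the other 19S subunits and 0.01 over all genes.

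Of the 7 chaperones, 1 rose and 3 fell. PSMG4 (chr6:3258928-3268066) was at 34.9 and 31.0 CPM in controls and at 22.7, 20.9 and 20.5 in the KO. All KO libraries were below both controls, and PSMG4 fell by 0.63 on the log2 scale (SE 0.0994, adjusted p = 0.000147 in edgeR). PSMG1 fell by 0.22, which missed the threshold without control 1, and PSMD5 fell by 0.21. PSMD9, a chaperone of the base, rose by 0.24. The calls of PSMD5 and PSMD9 were lost without either control or KO 1, and that of PSMD5 also without KO 3 and with library-size scaling.

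**Figure D2:**
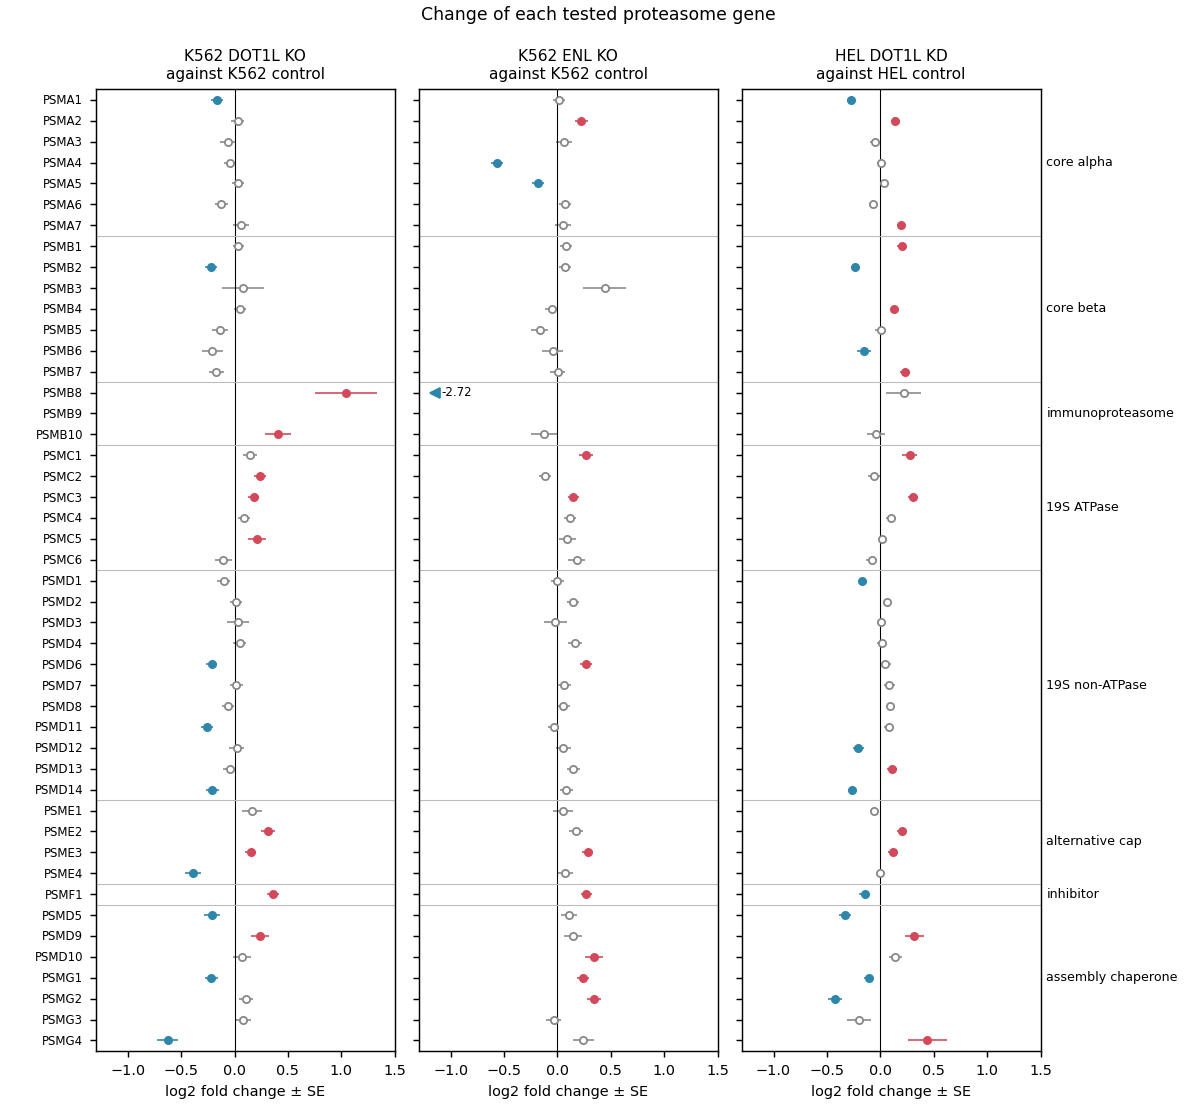
Fitted log2 fold change with its standard error for each tested member (rows, grouped by role) in the 3 comparisons with a control; red points were higher and blue points lower at an adjusted p under 0.05, open grey points did not pass. Most points lie within 0.5 of 0; the arrow marks PSMB8 in the ENL KO, whose fitted value rests on 1 to 4 counts per KO library and depends on the prior count.

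Loss of ENL was compared with the same 2 control libraries, so the 2 knockout comparisons are not independent. The alpha subunit PSMA4 was lower, and chaperones, the cap PSME3 and PSMF1 were higher. Of 45 members, 12 passed (9 higher, 3 lower), where 41.0% of all genes did, 18.8% higher and 22.2% lower. At 1.2-fold or more, 8 members and 34.2% of all genes passed. With a replicate block added to the fit, 26 members (57.8%) and 49.1% of all genes passed. Without ENL KO 3, the shallowest library, the count was 17 (39.2% of all genes passed), and without control 1 it was 8 (27.9% of all genes). Libraries did not overlap in 24 members, against 59.6% of all genes. The labels name a sequencing lane for control and DOT1L KO libraries and none for ENL KO, so a batch and the ENL knockout cannot be told apart.

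PSMA4 (chr15:78540405-78549262) had the largest change among the core genes that passed. Both controls were high, at 227 and 239 CPM, as were the DOT1L KO libraries at 228, 234 and 216. With ENL lost it was at 159, 155 and 160. The ENL KO libraries lay together below all other K562 libraries. PSMA4 fell by 0.56 on the log2 scale (SE 0.0548, adjusted p = 2.45e-06 in edgeR) in the ENL KO, and the direct comparison of DOT1L KO with ENL KO gave 0.52 ± 0.0496 (adjusted p = 8.29e-07 in edgeR). PSMA5 fell by 0.18, a call lost without either control or without ENL KO 2, and PSMA2 rose by 0.22, lost without either control. None of the 7 beta genes passed the edgeR threshold.

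PSMB8 had 4, 2 and 1 counts in the ENL KO, below the 21 and 15 counts of the controls, and the ratio of pooled counts per total was 0.146 (95% counting interval 0.0547 to 0.332). PSMB10 was at 20.5, 18.8 and 16.5 CPM and did not pass. It made up 8.65% ± 0.476 (SD, n = 3) of the sum of PSMB7 and PSMB10 per kilobase. IRF1 fell to 6.38, 6.13 and 5.80 CPM and B2M to 38.9, 33.4 and 39.7, each below both controls. TAP1 did not pass.

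**Figure D3:**
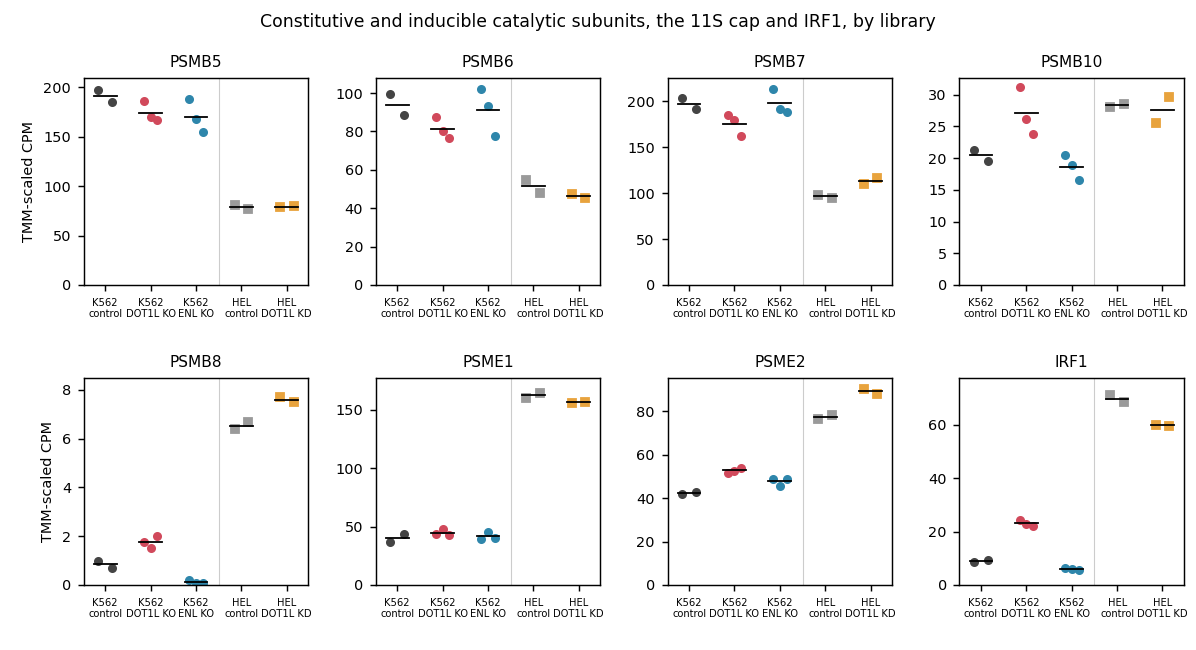
TMM-scaled CPM (axes from 0) of the constitutive catalytic subunits PSMB5, PSMB6 and PSMB7, the inducible PSMB10 and PSMB8, the PA28 genes PSME1 and PSME2, and IRF1; each point is 1 library and each bar the group mean. PSMB10, PSMB8 and IRF1 are higher in every K562 DOT1L KO library than in either control, and IRF1 is lower in every ENL KO library.

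Of the 7 chaperones 3 rose in the ENL KO and none fell. PSMG2, a chaperone of core assembly, went from 50.7 ± 1.01 CPM (SD, n = 2) to 61.3, 65.3 and 66.0, a log2 fold change of 0.34 ± 0.0659 (adjusted p = 0.00104 in edgeR). PSMG1 rose by 0.24. PSMD10 (gankyrin) went from 31.0 and 34.9 CPM to 40.7, 40.7 and 44.2, with no overlap, a log2 fold change of 0.35 and an adjusted p of 0.00553 in edgeR, which was 0.089 without control 1. Of the 19S genes PSMC1, PSMC3 and PSMD6 rose, by 0.27, 0.15 and 0.27 on the log2 scale; the call of PSMC3 was lost without either control, ENL KO 1 or ENL KO 2 and with upper-quartile scaling. PSME3 went from 285 and 291 CPM to 341, 353 and 358, and PSMF1 from 107 in both controls to 127, 130 and 132. All ENL KO libraries were above the controls for both genes.

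The direct comparison of the knockouts needs no control library, but here too a batch and the ENL knockout cannot be told apart. DOT1L KO was lower than ENL KO in 18 and higher in 6 of 45 members, 24 in all, where 60.2% of all genes passed (28.3% lower, 31.8% higher). At 1.2-fold or more, 13 members and 49.6% of all genes passed. With a replicate block, 33 members (73.3%) and 67.2% of all genes passed. The split was 15 lower to 9 higher with library-size scaling and 15 to 8 with upper-quartile scaling, and over all genes it moved from 4053 lower to 4553 higher to 3352 to 4972 and 3498 to 4862. The libraries did not overlap in 29 members, against 63.3% of all genes. Higher were PSMA4, PSMA5, PSMC2, PSMB10, PSMB8 and PSME2, the last with an adjusted p of 0.0498 in edgeR that was lost without any DOT1L KO library, ENL KO 1 or ENL KO 2. Of the lower calls, those of PSMB7, PSMD2 and PSME3 were lost with either other scaling and without several single libraries, and PSMA2 without DOT1L KO 3.

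Some members moved in opposite directions in the knockouts. PSMG1 had 113 and 111 CPM in controls, 100, 95.4 and 92.8 with DOT1L lost, and 134, 127 and 135 with ENL lost. PSMD6, a lid subunit, had 91.4 and 95.9 CPM in controls, 79.6, 82.3 and 80.2 with DOT1L lost, and 113, 114 and 112 with ENL lost. For both genes the controls lay between the knockouts with no overlap. DOT1L KO was below ENL KO by a log2 fold change of -0.46 for PSMG1 (adjusted p = 4.16e-06) and -0.48 for PSMD6 (adjusted p = 1.52e-06), both in edgeR. PSMG4 differed most among the well-counted members, at -0.87 ± 0.0899 (adjusted p = 1.87e-06 in edgeR), with 43.5, 38.3 and 34.8 CPM in the ENL KO.

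**Figure D4:**
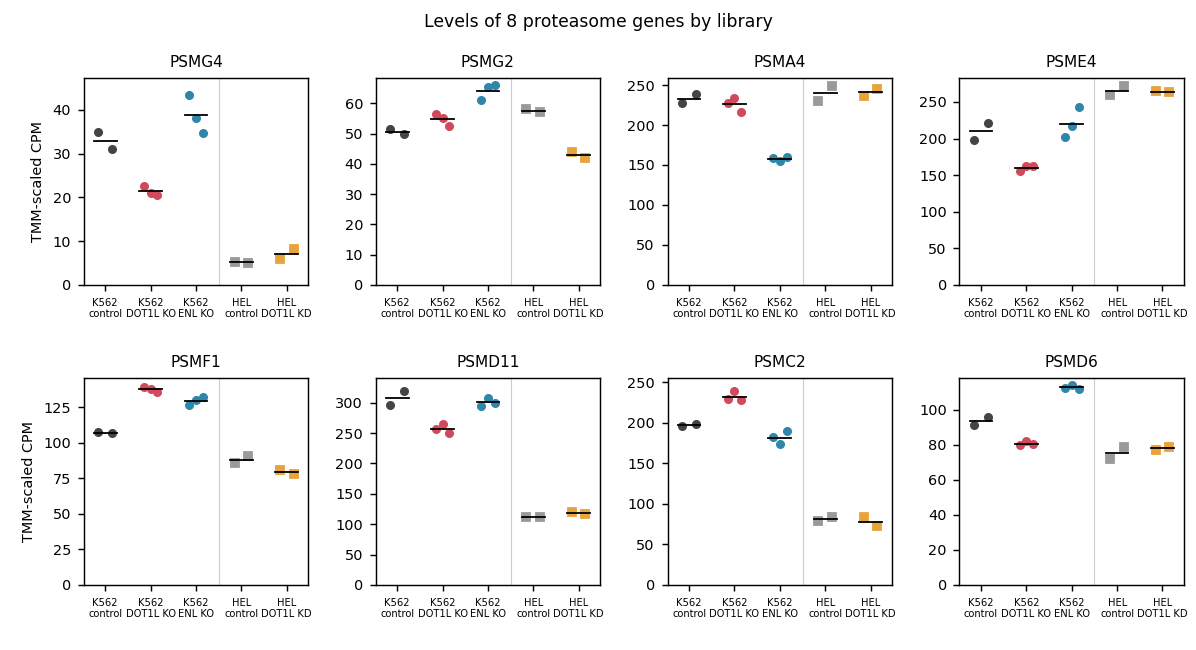
TMM-scaled CPM (axes from 0) of 8 members; each point is 1 library and each bar the group mean, circles K562 and squares HEL. PSMA4 is low in the 3 ENL KO libraries alone, PSMD6 lies below the controls in the DOT1L KO and above them in the ENL KO, and PSMG4 is lower in the K562 DOT1L KO.

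DOT1L knockdown in HEL gave small changes in both directions. The chaperones PSMG2 and PSMD5 and the core genes PSMA1 and PSMB2 were lower, and the ATPases PSMC1 and PSMC3 were higher. Of 44 tested members, 22 passed edgeR's test, 12 higher and 10 lower, where 55.0% of 12635 genes did (27.0% higher, 28.0% lower), and no member reached 0.5 on the log2 scale against 22.3% of all genes. DESeq2 called 14 members and 36.1% of all genes. At 1.2-fold or more, 8 members and 38.6% of all genes passed in edgeR. The split was 18 higher to 7 lower with library-size scaling and 19 to 7 with upper-quartile scaling. Over all genes it was 3411 higher to 3540 lower, and 3918 to 3180 and 4412 to 2768 with these scalings, so the calls of all genes moved in the same direction. Libraries did not overlap in 32 members, against 75.9% of all genes.

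In the HEL core, 5 of 13 tested constitutive genes rose and 3 fell. PSMA1 went from 200 and 214 CPM to 169 and 174 (log2 fold change -0.27, adjusted p = 3.48e-08 in edgeR). PSMB2 went from 290 and 292 CPM to 245 and 247. Both were lower in each KD library than in each control, and both had also fallen in the K562 DOT1L KO. PSMA7, PSMB1, PSMB7, PSMA2 and PSMB4 rose by 0.13 to 0.23 on the log2 scale, of which PSMA2 was lost without control 2. PSMB6 fell by 0.15, a call lost under other scalings and without control 1 (log2 fold change -0.06, adjusted p = 0.58 in edgeR), KD 1 or KD 2.

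None of the inducible catalytic subunits passed in HEL. PSMB10 was at 28.1 and 28.6 CPM in controls and at 25.5 and 29.6 in the KD, so the groups overlapped. PSMB8 had 80 and 84 counts in controls and 97 and 92 in the KD, a ratio per total of 1.19 (95% counting interval 0.963 to 1.48). PSMB10 made up 22.9% ± 0.692 (SD, n = 2) of the sum of PSMB7 and PSMB10 per kilobase in controls and 19.7% ± 1.04 (SD, n = 2) in the KD. PSME2 rose from 76.3 and 78.3 CPM to 90.3 and 87.7, while PSME1 was at 160 and 164 CPM and then 156 and 157. IRF1 fell from 70.9 and 68.6 CPM to 60.0 and 59.6. NLRC5 rose from 140 and 132 CPM to 181 and 179.

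Of the HEL chaperones, PSMG2 (chr18:12658739-12725741) went from 58.0 and 57.1 CPM to 43.8 and 41.8, below both controls, a log2 fold change of -0.43 ± 0.0625 (adjusted p = 7.33e-08 in edgeR). PSMD5 went from 69.8 and 77.2 CPM to 60.8 and 56.1, and PSMG1 fell by 0.11, a call lost with either other scaling and without control 2 or KD 2 (log2 fold change -0.09 and -0.08). PSMD9 went from 20.2 and 22.2 CPM to 27.0 and 25.9; its adjusted p was 0.0025 in edgeR and 0.077 in DESeq2, and 0.051 in edgeR without control 1. PSMG4 was at 5.35 and 5.08 CPM and then 6.04 and 8.13. Its adjusted p of 0.0348 in edgeR became 0.25 in DESeq2 and was 0.067 without control 1 and 0.13 without control 2, and without KD 2 its log2 fold change was 0.21 with an adjusted p of 0.48, from 0.44.

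In the HEL 19S particle 3 genes rose and 3 fell. PSMC3 went from 95.5 and 92.3 CPM to 113 and 120, and PSMC1 from 35.4 and 39.4 CPM to 43.8 and 46.8. PSMD14, the deubiquitinase of the lid, went from 187 and 190 CPM to 156 and 158. All KD libraries lay outside the range of the controls for these 3 genes. PSMD12 and PSMD1 fell by 0.21 and 0.17 on the log2 scale, and PSMD13 rose by 0.11, a call lost without any one of the 4 libraries. Of the caps and the inhibitor, PSME3 rose by 0.12, lost without control 1 (0.07) or KD 1 (0.08). PSMF1 fell by 0.15, lost with either other scaling and without control 2 or KD 2.

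The responses of the 2 lines to loss of DOT1L were compared as an interaction in a joint fit of 9 libraries. This fit estimated the spread over both lines together. The biological coefficient of variation was 6.34% in K562 and 1.83% in HEL when fitted apart, and its effect on the interaction p-values was not tested. HEL was depleted by knockdown and counted in reads, K562 by knockout and counted in fragments, so line, method and counting cannot be told apart. In 9 of 45 members the interaction passed (5 with a higher response in HEL, 4 with a lower), where 38.9% of 15367 genes passed (19.8% higher, 19.1% lower). PSMG4 had the largest difference among the members that passed, 1.08 ± 0.201 (adjusted p = 0.00018 in edgeR), from a fall in K562 against the HEL values given above. PSMF1 rose in K562 and fell in HEL (-0.49 ± 0.079, adjusted p = 3.72e-05 in edgeR). PSME4 fell in K562 and was at 259 and 271 CPM in HEL controls and 265 and 264 in the KD (0.40 ± 0.0761, adjusted p = 0.000229 in edgeR). PSMD11, which fell in K562, did not pass in HEL and differed by 0.35. PSMG2, which fell in HEL and did not pass in the K562 KO, differed by -0.52. PSMA1, PSMB2, PSMD5 and PSMD14 were lower and PSMC3, PSMD9, PSME2 and PSME3 higher past the threshold in both lines. Of these, PSME2 alone stayed past it in both lines with any single library left out. The K562 calls of all the others were lost without control 2.

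**Figure D5:**
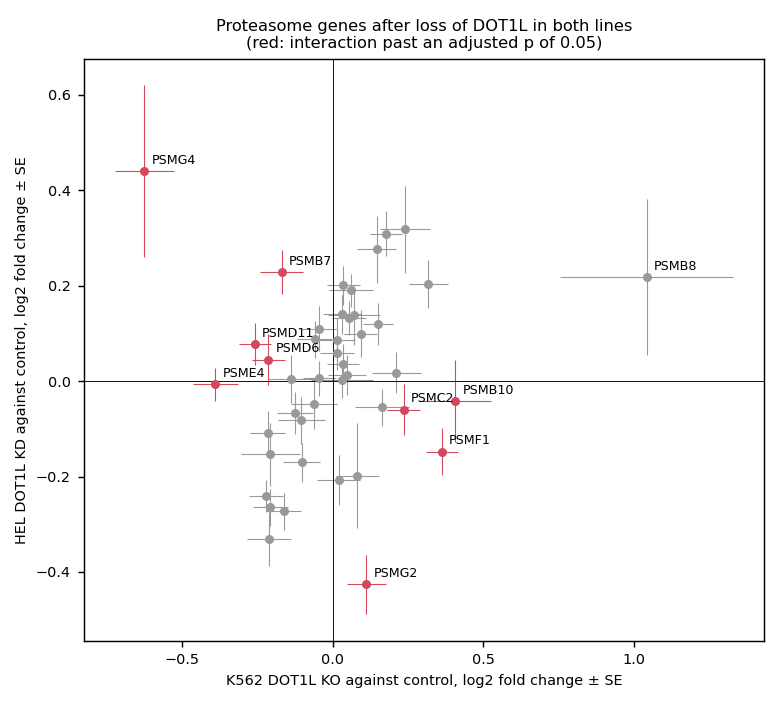
Log2 fold change of each member tested in both lines, K562 DOT1L KO on the x axis and HEL DOT1L KD on the y axis, with standard errors; red points passed the interaction test. PSMG4 sits at upper left, PSMF1 and PSMB10 at lower right and PSMG2 below the others; PSMB8 is labelled although its interaction did not pass.

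Some calls concern genes that overlap others on the opposite strand, and the use of strand in counting is not given in the sources used here. PSMC1 shares 49.4% of its exonic length with NRDE2 and PSMB7 38.3% with LOC100129034. LOC100129034 fell from 28.9 and 27.3 CPM to between 2.56 and 3.01 in the K562 DOT1L KO, and from 66.4 and 63.3 to 41.1 and 42.4 in HEL. PSMB7, whose interaction of 0.42 passed, was at 203 and 192 CPM in K562 controls, 185, 179 and 163 in the DOT1L KO, and rose from 98.4 and 94.6 to 110 and 116 in HEL. PSMC1 rose in the ENL KO and in HEL; NRDE2 was at 18.2 to 19.8 CPM in K562 controls and ENL KO and fell from 30.0 and 34.1 to 27.4 and 24.2 in HEL. Their part in the values of PSMC1 and PSMB7 was not tested.

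Genes that build, regulate or assist the proteasome but carry other symbols were taken as a list of 24. In the K562 DOT1L KO, 3 rose and 7 fell, 41.7% of the list against 51.1% of all genes. NGLY1, the glycanase that processes NFE2L1, fell from 90.8 and 101 CPM to 52.9, 54.8 and 53.6. ECPAS, a proteasome adaptor, fell by 0.52 and UBE3C, a ubiquitin ligase bound to the proteasome, rose by 0.48 on the log2 scale. NFE2L1, the activator of proteasome genes, was at 214 and 198 CPM in controls and 234, 229 and 212 in the KO and did not pass; its relative NFE2L2 fell by 0.32, and the core assembly factor POMP did not pass. In the ENL KO 6 of the 24 passed, 25.0% against 41.0% of all genes: 5 rose and 1, NFE2L2, fell by 0.28 (lost without control 2). TXNL1, a thioredoxin-like protein of the 19S particle, rose by 0.48. POMP rose by 0.21, lost without control 2, while NFE2L1 did not pass.

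In HEL 9 of the 24 rose and 8 fell, 70.8% of the list against 55.0% of all genes. The deubiquitinases of the 19S particle were among the lower: UCHL5 went from 160 and 157 CPM to 93.4 and 101, and USP14 from 105 and 116 to 71.4 and 73.4. ZFAND5, a proteasome activator, fell by 0.46. POMP rose from 93.7 and 96.8 CPM to 123 and 125, and NFE2L1 rose by 0.22; NFE2L2 did not pass. UCHL5 also fell in the K562 DOT1L KO, from 146 and 143 CPM to 103, 114 and 110, while USP14 was at 235 to 249 CPM in K562 controls and DOT1L KO.

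Over the 3 comparisons with a control, 12 of the 44 members tested in all of them passed in none: PSMA3, PSMA6, PSMB5, PSMC4, PSMC6, PSMD2, PSMD3, PSMD4, PSMD7, PSMD8, PSME1 and PSMG3. These genes hold the ubiquitin receptor PSMD4, the scaffold PSMD2 and the chymotrypsin-like catalytic subunit PSMB5. The share of all genes that passed in none was not counted, so the 12 are not read as a stable set. Of all genes, 51.1% passed in the K562 DOT1L KO, 41.0% in the ENL KO and 55.0% in HEL. PSMC3 and PSME3 were higher past the threshold in all 3, of which the K562 comparisons share their controls. A p that misses the threshold does not show that a gene did not change.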

How the data were processed

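Polyadenylated RNA was sequenced from K562 and HEL; of 74 deposited samples, 13 are RNA-seq columns and the others were not analysed here. The authors deposited whole-number counts per gene, fragment counts for K562 and read counts for HEL, per the file headers, unscaled. The submitters' processing notes name fastp 0.13.1, HISAT2 2.1.0 and featureCounts 1.6.1 among the tools, and hg38 and hg19 without saying which served which assay; exon positions in the tables match RefSeq on GRCh38 for all 48 members.

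Genes were kept with filterByExpr (minimum count 10, minimum total 15), scaled with TMM and tested with edgeR 4.0.16 (quasi-likelihood) in R 4.3.3, with Benjamini-Hochberg adjustment over all genes. The 8 distinct K562 libraries formed 1 fit, instead of the 9 planned, and the 4 HEL libraries another. The fits were tested on simulated data. Alternatives were DESeq2 1.42.0, other scalings, no filter, a replicate block, only the groups compared, a minimum of 1.2-fold and leaving out each library. A floor of 3 counts was worth 0.103 to 0.247 CPM. The biological coefficient of variation was 6.34% in K562 and 1.83% in HEL.

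The members and lists were chosen with earlier results of these data known. Values are given for the inducible subunits and their partners and for the 4 largest changes in each direction per comparison with a control. Of the lists, the 3 largest changes and NFE2L1, NFE2L2, POMP, IRF1 and TAP1 are named. Genes overlapping a member and the promoter motifs other than TGACNNNGC were added after values were seen. Counts without the members listed on several sequences were an alternative chosen after seeing the data. Some genes of the lists are not reported here.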

Additional observations from a re-analysis of the deposited data

Results flagged for a closer look

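In 9 members the response to loss of DOT1L differed between HEL and K562 by the interaction test of edgeR at an adjusted p under 0.05. As log2 response in HEL minus that in K562, the difference was 1.08 for PSMG4, 0.42 for PSMB7, 0.40 for PSME4, 0.35 for PSMD11 and 0.28 for PSMD6. It was -0.28 for PSMC2, -0.43 for PSMB10, -0.49 for PSMF1 and -0.52 for PSMG2. PSMB10, PSMC2 and PSMD6 did not pass in every fit that left out 1 library: PSMB10 was lost without K562 control 2, DOT1L KO 1, either HEL control or HEL KD 1 (highest adjusted p = 0.19), PSMC2 without K562 control 1, HEL control 2 or HEL KD 2 (0.15), and PSMD6 without K562 control 2, HEL control 1 or HEL KD 2 (0.10).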

How the results depend on the processing

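Other scalings moved the median log2 fold change of all genes by at most 0.073 in the 4 comparisons between groups. Members past the threshold in the K562 DOT1L KO ranged from 7 to 16 in fits that left out 1 library, against 18. Leave-one-out counts ran from 8 to 17 in the ENL KO, 19 to 26 between the knockouts, 18 to 22 in HEL and 7 to 13 for the interaction. A minimum of 1.2-fold left 6 members in the K562 DOT1L KO, 13 between the knockouts and 8 in HEL. DESeq2 called 14 members and 4561 genes in HEL against 6951 genes in edgeR; the cause was not tested. Without the members listed on several sequences the counts were 17, 11, 23 and 22. The median level over members in HEL was 55.3 (control) and 54.3 (KD) CPM per kilobase, and 54.6 and 54.9 with library-size scaling. For the members named by the rule, 836 values under other settings kept their side of the threshold, 59 lost it and 21 gained it. Over all member calls past the threshold, 116 values under other settings were lost, and these fell on 32 calls.

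The labels state no pairing by replicate number. Deviations from the group mean correlated at 0.053 to 0.22 between same-numbered K562 libraries of different groups. Between differently numbered K562 libraries they correlated at -0.158 to 0.088. In HEL the values were 0.00044 and -0.00044. Whether same-numbered K562 libraries share a batch was not tested. With a replicate block the members past the threshold were 23 in the K562 DOT1L KO, 26 in the ENL KO, 33 between the knockouts, 21 in HEL and 15 for the interaction. Of all genes, 8340 (58.3%), 7021 (49.1%), 9605 (67.2%), 6903 (54.6%) and 6822 (44.4%) then passed, and of members 51.1%, 57.8%, 73.3%, 47.7% and 33.3%.

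With 2 controls per line, and 2 libraries a group in HEL, small changes rest on few libraries, and PSMB8 in K562 is limited by counts.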

Other observations

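Of the symbols that begin like the members but fall outside the rule, PSMG3-AS1, the antisense gene of the chaperone PSMG3, rose in the K562 DOT1L KO from 6.88 and 6.81 CPM to 17.0, 15.5 and 17.4 (log2 fold change 1.28 ± 0.106, adjusted p = 3.32e-07 in edgeR). It was at 6.67, 6.33 and 6.77 CPM in the ENL KO. PSMG3 itself was at 68.2 and 63.3 CPM in K562 controls and at 70.8, 70.9 and 67.0 in the DOT1L KO and did not pass. PSMA3-AS1 went from 15.4 and 14.5 CPM to 17.8, 18.9 and 22.3 in the DOT1L KO (adjusted p = 0.00965 in edgeR), lost without control 2, and PSMA3 did not pass. These genes were chosen after their values were seen, and the use of strand in counting is not given in the sources used here.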
